A study of Mus musculus with 7 samples.

Results

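The genes of cyclic AMP and protein kinase A signalling were taken by symbol from the annotation of the mouse430_2 array: adenylyl cyclases, catalytic and regulatory subunits of protein kinase A (PKA), PKA inhibitors, A-kinase anchoring proteins, phosphodiesterases and the Rap exchange factors Rapgef2 and Rapgef3. They numbered 61 of the 18193 genes measured. Each gene was represented by its brightest probe set, judged by the mean of the 7 arrays, among probe sets that carry a single symbol. The rule uses names and overall signal, not the difference between genotypes, but it was set with earlier results of these data known.

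The data were 7 expression arrays of whole hypothalamus dissected from mice aged 3 months, 1 array per sample. The Creb-PomcCre-/- group (called knockout here) held 3 samples, from mice whose Creb gene is removed in cells that make Cre under Pomc control. The wild-type group held 4. The labels number the samples as biological replicates. They do not say whether a sample pools animals, or whether the wild-type mice carried the Cre transgene or a floxed Creb allele. The deletion concerns Pomc cells, a small part of the tissue assayed. Xist and Y-linked transcripts marked knockout array 1 and wild-type arrays 1 and 4 as female and the other arrays as male.

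Cyclic AMP is made from ATP by adenylyl cyclases, which G protein-coupled receptors switch on through Gs and off through Gi. It binds the regulatory subunits of PKA and frees the catalytic subunits, which phosphorylate channels, enzymes and, in the nucleus, CREB. Inhibitor peptides of the Pki family block the free catalytic subunits, anchoring proteins hold the kinase near its targets, and phosphodiesterases end the signal by hydrolysing the nucleotide. In the hypothalamus the melanocortin receptors, which read the peptides made from Pomc, signal through Gs and cyclic AMP.

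The targeted gene did not differ in whole tissue. Creb1 read 9.42, 9.46 and 9.47 on the log2 scale in the knockout arrays, against 9.44, 9.57, 9.40 and 9.56 in the wild-type arrays (limma, adjusted p = 0.787). Pomc, the marker of the targeted cells, read 10.30, 9.68 and 9.66 in the knockout and 10.28, 9.24, 9.49 and 9.69 in wild type (limma, adjusted p = 0.765). Of the 5 other Creb1 probe sets 4 overlapped between the groups, and a dim one was higher in the knockout, by 0.18 ± 0.079 (SE) (limma, adjusted p = 0.467). In both genes the groups overlapped on the brightest probe set, and whole-tissue values such as these give no check of the genotype. Of 13 measured hypothalamic markers, 11 were higher in the knockout, with a median difference of 0.12, and 0 passed the threshold.

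None of the 61 genes differed between genotypes after adjustment over all 18193 genes (limma, adjusted p under 0.05, a rule met by 0.011% of all genes). The lowest adjusted p among them was 0.22, for Rapgef2. Differences ran from -0.28 for Adcy1 to 0.26 for Akap4, knockout minus wild type on the log2 scale, or 0.821-fold to 1.2-fold. In 38 of the 61 genes the difference was smaller than 0.1 in size. The 95% interval of the difference lay within 0.5 of 0 in 57 genes and within 0.3 of 0 in 46. These intervals are unadjusted and hold for the brightest probe set alone. That of Pde1c ended at 0.044, while another of its probe sets differed by 0.32.

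Although none passed, more of the 61 genes were below than above the wild-type mean. In the knockout 42 were lower and 19 higher, with a median of -0.051, beside 0.0036 over all genes, of which 48.5% were lower. Of the 61 genes, 11 had an unadjusted p under 0.05 (limma), 9 lower and 2 higher. Over all genes 11.7% reached it, 6.12% on the lower side and 5.6% on the higher side. The arrays of the genotypes were fully apart in 12 genes, 9 lower and 3 higher, where 12.1% of all genes were so, 6.05% on the lower side and 6.09% on the higher side. Of the 48 genes at or above the array median, 38 (79.2%) were lower in the knockout, where 53.7% of all genes of that brightness were lower. The 13 others lay under the array median. With no detection call, it is not known whether their signal exceeds background.

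Several lists of cell type markers differed as well, with 0 markers past the threshold in those given here. Of the 15 neuron markers 12 were lower in the knockout, with a median of -0.063, and their summed log2 level was 16.03 to 16.08 in the knockout arrays and 16.08 to 16.15 in the wild-type arrays. Ependymal and choroid plexus markers were lower in 9 of 9 (median -0.10) and endothelial and mural markers in 8 of 12 (median -0.099), while astrocyte markers were higher in 6 of 8 (median 0.053). Of 12 markers of meninges and fibroblasts 10 were lower, with a median of -0.68, and wild-type arrays 2 and 3 stood apart in them. Their median deviations were -0.40, -0.25 and -0.42 in the knockout arrays and -0.38, 0.45, 1.21 and -0.31 in the wild-type arrays. The part of cell makeup in the values of the cyclic AMP genes was not tested. In bulk tissue, fewer cells of a type and less RNA per cell cannot be told apart.

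**Figure D1:**
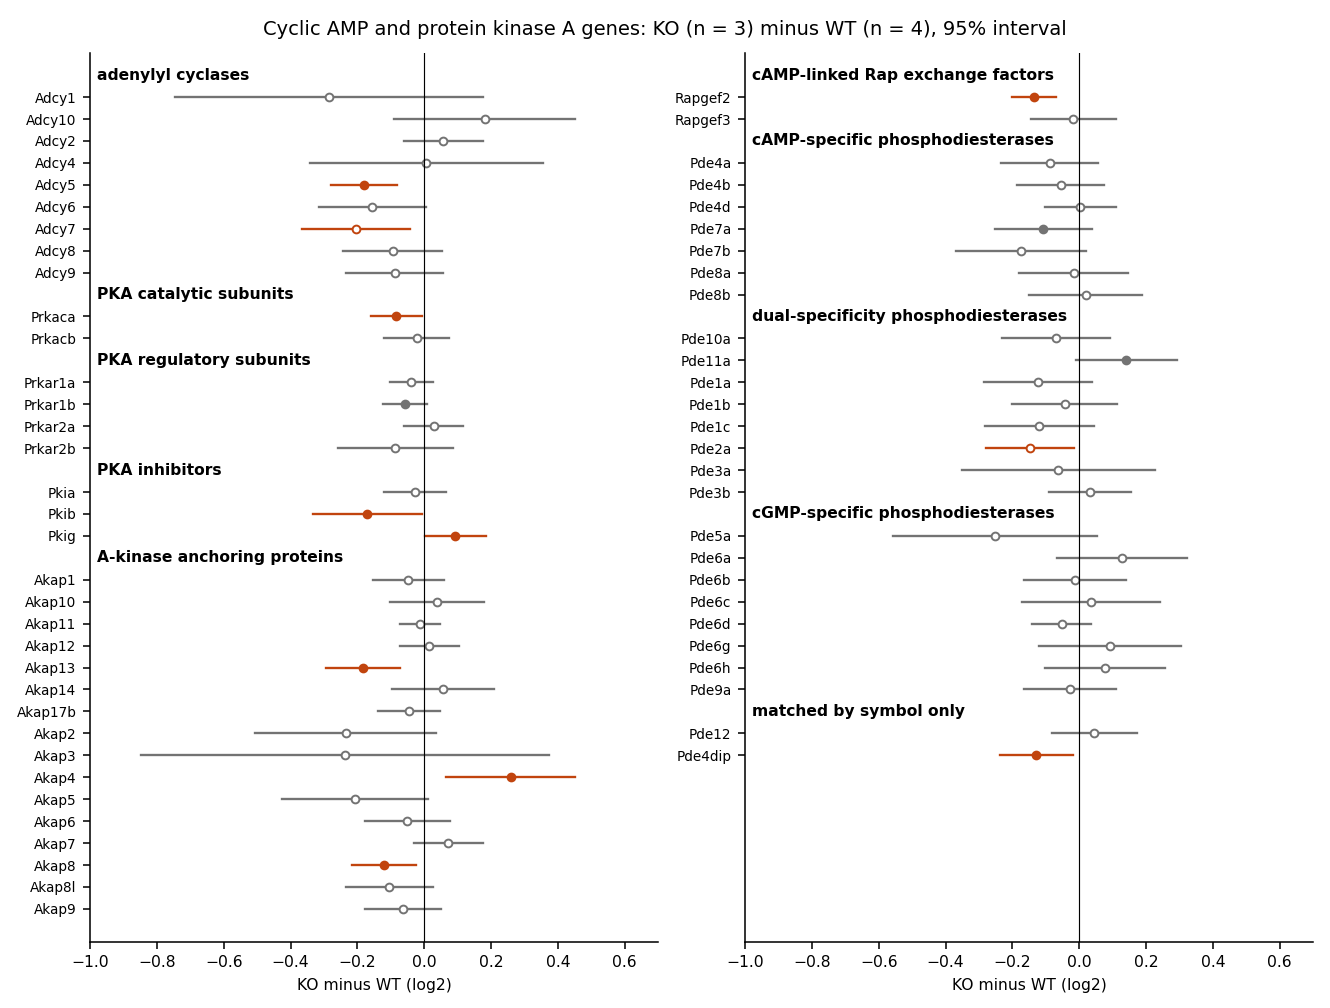
Differences between 3 knockout (KO) and 4 wild-type (WT) arrays for the 61 genes, grouped by role. Points show KO minus WT on the log2 scale, lines the 95% interval of limma, orange an unadjusted p under 0.05, and filled points genes whose KO and WT values do not overlap. The differences lie between -0.28 and 0.26, with 42 of 61 below 0.

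Because the deleted factor binds the cyclic AMP response element, RefSeq promoter windows (GRCm38.p6, 250 bases before to 50 after a gene's start) were searched for its letters. Windows were given for 49 of the 61 genes, 95 windows in all. The full element TGACGTCA, a palindrome, stood in the windows of 1 gene, Prkar1a, and in 1.79% of all 32851 windows in the table. The full element or its short arm (TGACG, or CGTCA where it lies on the opposite strand, with an arm inside the full element not counted again) stood in 20 of the 95 windows, or 21.1%, and in 20.8% of all windows. Of the 11 genes with an unadjusted p under 0.05, 4 held the short arm. By gene, 18 of the 49 (36.7%) held either motif, beside 23.0% of all genes in the table, and many of the 49 have several windows. The 5 genes that hold the full element, or a short arm together with an unadjusted p under 0.05, are shown with 10 bases on each side of the motif, on the gene's strand, with the motif in capitals.
Prkar1a: cgaggcgcatTGACGTCAgcagccgaac
Prkaca: ctgcaactcgCGTCActcatccagg
Pkig: ttgacaaatgTGACGggcctgggat
Adcy7: atcatagagcCGTCAggggggtggg
Pde2a: ggcgcaggagCGTCAcggctgctgc

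The Prkar1a element occupies chr11:109650900-109650907 on the plus strand and ends 42 bases before an annotated start of the gene. The Prkaca site shown is at chr8:83972858-83972862, 116 bases before the start, and another one ends 2 bases before it. The Pkig site is at chr2:163693826-163693830 and the Adcy7 site at chr8:88282964-88282968. The Pde2a site, at chr7:101450534-101450538, begins at base 15 of its window's transcript. A match describes letters only, and the share of windows with one was near that in all promoters.

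Among the 9 adenylyl cyclases 6 were lower and 3 higher, with a median of -0.095 and 0 past the threshold. Adcy5, a calcium-inhibited cyclase best known from the striatum and heart, read 9.79, 9.75 and 9.71 in the knockout arrays, against 9.87, 9.96, 9.98 and 9.92 in the wild-type arrays. All 3 knockout arrays lay below all 4 wild-type arrays. The means were 9.75 ± 0.040 (SD, n = 3) and 9.93 ± 0.050 (SD, n = 4). They differed by -0.18 ± 0.043 (SE), which is 0.883-fold (limma, adjusted p = 0.261). Another of its probe sets differed by -0.12 and did not overlap either, and a pair of dim ones differed by 0.12 and 0.11. Of 10 measured markers of striatum, cortex and amygdala 4 were lower and 6 higher in the knockout, with a median of 0.013. The part of such tissue in the Adcy5 value was not tested.

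Adcy7, a cyclase of immune cells and microglia, read 8.87, 8.64 and 8.67 in the knockout, against 8.84, 8.87, 9.01 and 8.999 in wild type. Knockout array 1 lay inside the wild-type range, and the others lay below it. The difference was -0.20 ± 0.071 (SE), and its 3 probe sets differed by -0.20, -0.20 and -0.18 (limma, adjusted p = 0.349 for the brightest). Of 10 measured microglia markers 7 were lower and 3 higher in the knockout, with a median of -0.097. Fcrls stood apart from the others at -0.88 (limma, adjusted p = 0.0624). The summed log2 level of the 10 was 12.50, 12.37 and 12.36 in the knockout and 12.45, 12.57, 12.53 and 12.62 in wild type. Knockout array 1 again lay within the wild-type range. The part of microglia in the Adcy7 value was not tested.

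Adcy1, a calcium-stimulated cyclase of forebrain and thalamic neurons, had the largest difference of the 61 genes, at -0.28 ± 0.20 (SE), and a wide interval from -0.75 to 0.18 (limma, adjusted p = 0.601). It read 9.43, 9.38 and 9.64 in the knockout arrays, against 9.40, 10.40, 9.61 and 9.66 in wild type. A single array, wild-type array 2, stood far above all others, which lay between 9.38 and 9.66 in both genotypes. Without that array the difference was -0.075.

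The same array was highest for Pde7b, a cyclic AMP-specific phosphodiesterase, and for the anchoring protein gene Akap2. Pde7b read 9.75, 9.56 and 9.71 in the knockout and 9.81, 10.08, 9.72 and 9.78 in wild type, and its difference was -0.17, or -0.098 without wild-type array 2. Of the 3 Pde7b probe sets 2 were lower and 1 higher, by 0.16, and their mean differed by -0.024. Akap2 read 9.55, 9.51 and 9.68 in the knockout and 9.61, 10.16, 9.68 and 9.81 in wild type, and its difference was -0.23, or -0.12 without that array. The 14 thalamus and habenula markers had their highest median deviation there too, 0.70, against -0.31 to 0.17 on the other 6 arrays. Their summed log2 level was 14.30 to 14.53 in the knockout and 14.34 to 14.85 in wild type, and 12 of the 14 were lower in the knockout. The part of thalamic tissue in these 3 genes was not tested.

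**Figure D2:**
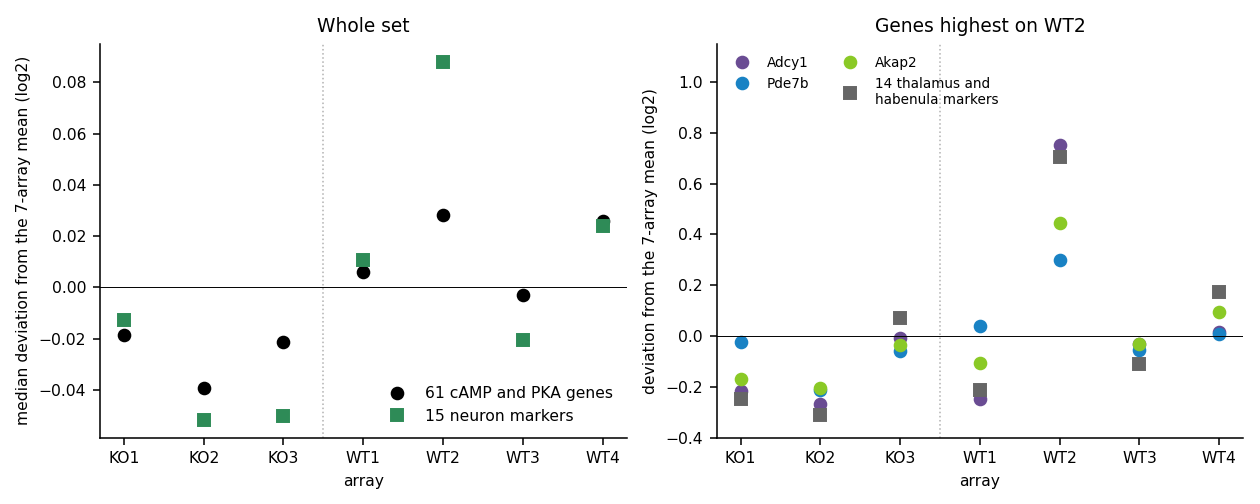
Left, the median deviation from the 7-array mean (log2) of the 61 genes and of 15 neuron markers on each knockout (KO) and wild-type (WT) array. Right, the deviation of Adcy1, Pde7b and Akap2 beside the median of 14 thalamus and habenula markers, all highest on WT2, where the marker median is 0.70.

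The other cyclases did not pass either. Adcy6, a relative of Adcy5, read 8.78, 8.87 and 8.87 in the knockout and 8.82, 8.998, 9.05 and 9.10 in wild type, a difference of -0.16 ± 0.071 (SE) with overlap (limma, adjusted p = 0.44). Adcy8 and Adcy9 differed by -0.095 and -0.088, and all 4 Adcy9 probe sets were lower. Adcy2, a cyclase stimulated by G protein beta and gamma subunits, read 10.38, 10.32 and 10.25 in the knockout, against 10.27, 10.15, 10.30 and 10.32 in wild type, a difference of 0.057 ± 0.052 (SE). Adcy4 and the soluble cyclase gene Adcy10 were dim, with differences of 0.0062 and 0.18.

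All 6 subunit genes of PKA itself differed by less than 0.1. Of the catalytic subunits, Prkaca read 12.09, 12.13 and 12.14 in the knockout arrays, against 12.17, 12.18, 12.19 and 12.27 in the wild-type arrays. The groups did not overlap, and the difference was -0.083 ± 0.033 (SE), or 0.944-fold (limma, adjusted p = 0.39). The other Prkaca probe set differed by 0.072 ± 0.044 (SE), so that the probe sets of this gene disagreed in sign, and their mean differed by -0.0057. Prkacb, the catalytic subunit gene abundant in brain, differed by -0.022, with an interval from -0.12 to 0.075.

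Of the regulatory subunits, which bind cyclic AMP, 3 were lower and 1 higher, with a median of -0.048. Prkar1b, the neuronal type I subunit, read 13.15, 13.16 and 13.18 in the knockout, against 13.28, 13.18, 13.19 and 13.23 in wild type. Its groups did not overlap, by a narrow margin, at a difference of -0.057 ± 0.029 (SE) (limma, adjusted p = 0.475). Of its 5 probe sets 3 went the other way, and the mean over probe sets differed by 0.0064. Prkar1a, whose promoter carries the full response element, differed by -0.038 ± 0.029 (SE), with knockout arrays at 12.64, 12.60 and 12.59 and wild-type arrays at 12.67, 12.63, 12.61 and 12.68. Its other probe sets differed by 0.16 and 0.076, and the mean over probe sets by 0.066, so that its direction is not settled. The mean levels of the 3 Prkar1a probe sets spanned 6.52 on the log2 scale, and the others were dimmer than the one given. Prkar2a and Prkar2b, the type II subunits, differed by 0.029 and -0.087, and all 4 Prkar2a probe sets were higher.

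The PKA inhibitors went in different directions. Pkib read 7.99, 7.89 and 7.92 in the knockout, against 8.27, 8.05, 8.01 and 8.08 in wild type, with no overlap and a difference of -0.17 ± 0.072 (SE) (limma, adjusted p = 0.413). Its other probe set differed by 0.24 ± 0.12 (SE), so that the direction of Pkib is not settled. Pkig read 9.73, 9.69 and 9.64 in the knockout, against 9.60, 9.55, 9.62 and 9.60 in wild type. Every knockout array exceeded the wild-type range, at a difference of 0.093 ± 0.040 (SE) (limma, adjusted p = 0.422). The groups overlapped on its other probe set, which differed by 0.0097. Pkia, the inhibitor described in brain and muscle, read 11.53, 11.47 and 11.55 in the knockout and 11.54, 11.47, 11.62 and 11.55 in wild type, a difference of -0.028.

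**Figure D3:**
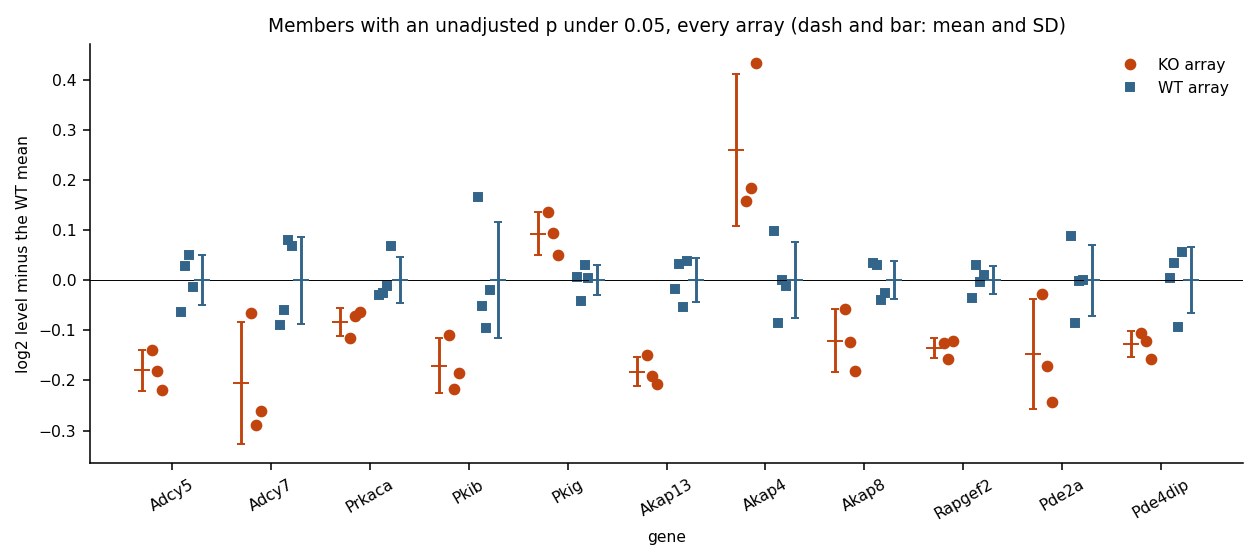
Every array of the 11 genes with an unadjusted p under 0.05, as log2 level minus the wild-type mean. Circles are the 3 knockout (KO) arrays, squares the 4 wild-type (WT) arrays, and dashes with bars the mean and SD. In Adcy7 and Pde2a the groups overlap, and in the other 9 genes they do not.

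Of the 16 A-kinase anchoring proteins 11 were lower and 5 higher, with a median of -0.049. Akap13, which encodes a large anchoring protein, read 8.35, 8.31 and 8.29 in the knockout, against 8.48, 8.53, 8.45 and 8.54 in wild type. No array overlapped, and the difference was -0.18 ± 0.048 (SE), or 0.881-fold (limma, adjusted p = 0.271). Of its 7 probe sets 5 were lower, and the 6 others differed by -0.21 to 0.16. Akap8, a nuclear anchoring protein, read 10.24, 10.18 and 10.12 in the knockout, against 10.33, 10.33, 10.26 and 10.27 in wild type. It differed by -0.12 ± 0.042 (SE) without overlap (limma, adjusted p = 0.35), and its other probe set differed by 0.012.

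Akap4, a protein of the sperm tail, read 4.24, 4.27 and 4.52 in the knockout and 4.18, 3.997, 4.08 and 4.07 in wild type. The difference of 0.26 ± 0.085 (SE) lay at low signal, under the array median (limma, adjusted p = 0.328). Whether that signal exceeds background is not known. Akap5, which anchors PKA at synapses, read 6.48, 6.55 and 6.81 in the knockout, against 6.69, 6.90, 6.80 and 6.90 in wild type, a difference of -0.21 ± 0.096 (SE) with overlap. Its other probe sets differed by -0.076 and -0.030. Akap11, an anchor linked to autophagy, had the smallest SD over the wild-type arrays of the 61 genes, 0.011. It read 11.77, 11.77 and 11.75 in the knockout and 11.77, 11.79, 11.77 and 11.76 in wild type. The dim testis gene Akap3 had the largest SD in both genotypes, at 5.22 ± 0.47 (SD, n = 3) in the knockout and 5.46 ± 0.44 (SD, n = 4) in wild type. Akap1, Akap6, Akap8l, Akap9 and Akap17b differed by -0.10 to -0.046, and Akap7, Akap10, Akap12 and the dim Akap14 by 0.016 to 0.072.

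Rapgef2, a Rap exchange factor linked to cyclic AMP signalling in neurons, had the smallest p of the 61 genes. It read 11.89, 11.85 and 11.89 in the knockout arrays, against 11.98, 12.04, 12.01 and 12.02 in the wild-type arrays. The knockout arrays all lay below the wild-type arrays, with means of 11.88 ± 0.020 (SD, n = 3) and 12.01 ± 0.028 (SD, n = 4). The difference was -0.14 ± 0.028 (SE), or 0.911-fold, with an interval from -0.20 to -0.071 (limma, adjusted p = 0.22). Leaving out any single array kept it between -0.15 and -0.12. Rapgef3, the exchange factor that cyclic AMP activates directly, differed by -0.018 ± 0.056 (SE), and its 5 probe sets ran from -0.19 to -0.018.

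Of 15 phosphodiesterase genes whose enzymes hydrolyse cyclic AMP, 11 were lower and 4 higher, with a median of -0.063. Pde2a, which cyclic GMP stimulates to degrade cyclic AMP, read 11.36, 11.22 and 11.15 in the knockout, against 11.48, 11.30, 11.39 and 11.39 in wild type. Knockout array 1 lay inside the wild-type range, and the difference was -0.15 ± 0.058 (SE), or 0.903-fold (limma, adjusted p = 0.385). Its other probe sets differed by -0.19 and -0.16, both without overlap, so that all 3 pointed the same way. Among the dual-specificity enzymes Pde1a, Pde1c and Pde10a differed by -0.12, -0.12 and -0.069, Pde1b and Pde3b by -0.044 and 0.031, and the dim Pde3a by -0.063. The 5 other Pde1c probe sets were higher, by up to 0.32. The dim Pde11a was higher on every knockout array, at 4.80, 4.80 and 4.87, against 4.71, 4.66, 4.60 and 4.75 in wild type. Its other probe set, dimmer by only 0.079, differed by -0.056, so that the direction of Pde11a is not settled.

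The cyclic AMP-specific Pde4 genes, the targets of rolipram, showed small differences. Pde4d read 10.03, 9.92 and 9.96 in the knockout and 9.94, 10.04, 9.90 and 9.97 in wild type, a difference of 0.0036 ± 0.047 (SE), with an interval from -0.10 to 0.11. Pde4b and Pde4a differed by -0.056 and -0.089, and 5 of the 6 Pde4b probe sets were lower. Pde7a read 8.30, 8.41 and 8.38 in the knockout and 8.41, 8.46, 8.41 and 8.61 in wild type, a difference of -0.11 ± 0.064 (SE), and the groups were apart by less than the rounding of these values. Pde8a and Pde8b differed by -0.017 and 0.020.

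The 8 cyclic GMP-specific genes were split, 4 lower and 4 higher, with a median of 0.011. Pde5a, the target of sildenafil, read 5.51, 5.63 and 5.55 in the knockout, against 5.45, 6.06, 5.95 and 5.80 in wild type, a difference of -0.25 ± 0.13 (SE) at low signal (limma, adjusted p = 0.491). Pde6d, a prenyl-binding subunit found in many tissues, read 9.99, 10.07 and 10.06 in the knockout and 10.06, 10.08, 10.13 and 10.09 in wild type, a difference of -0.053. The photoreceptor genes Pde6a, Pde6b, Pde6c, Pde6g and Pde6h were dim, with differences from -0.014 to 0.13, and Pde9a differed by -0.027.

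Pde4dip and Pde12 matched by symbol, although neither belongs to the cyclic nucleotide phosphodiesterase family. Pde4dip, the centrosomal protein myomegalin, read 9.16, 9.14 and 9.11 in the knockout and 9.27, 9.30, 9.17 and 9.32 in wild type. It differed by -0.13 ± 0.048 (SE) without overlap (limma, adjusted p = 0.372), and its 3 other probe sets differed by -0.032, 0.029 and -0.062. Pde12, a mitochondrial nuclease, differed by 0.045.

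The probe sets of a gene often disagreed. Of the 43 genes with several probe sets, 26 had probe sets of both signs, 11 were lower in all and 6 higher in all. How often this was so over all genes was not counted. The 95 probe sets that did not stand for their gene were nearly balanced, 50 lower and 45 higher, with a median of -0.015. Of these 95, 44 lay at or above the array median. The rest lay under it, and whether their signal exceeds background is not known. With the mean of a gene's probe sets, 3 of the 61 genes kept an unadjusted p under 0.05 (limma), namely Rapgef2, which has a single probe set, Pde2a and Adcy7. Over all genes 10.7% reached it then, and the median of the 61 genes was -0.017, beside 0.011 over all genes. Of the 156 probe sets, 0 passed the threshold over 45037 probe sets (limma, lowest adjusted p = 0.259, where 0.00666% of all probe sets passed). Of the 156, 21 had an unadjusted p under 0.05 (13.5%, beside 10.6% of all probe sets).

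**Figure D4:**
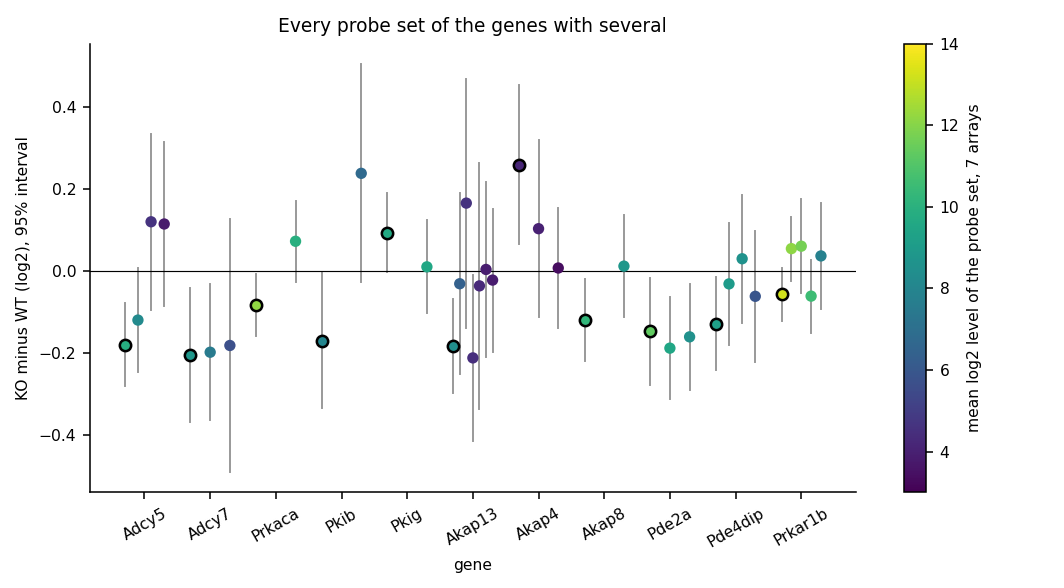
Knockout (KO) minus wild-type (WT) difference with its 95% interval for every probe set of 11 genes: the 10 of several probe sets with an unadjusted p under 0.05, and Prkar1b. Colour gives the mean log2 level and a black rim the probe set that stands for the gene. The 3 probe sets of Adcy7 and of Pde2a lie below 0, and those of Akap4 and Pkig above it. Those of Prkaca, Pkib, Adcy5, Akap13, Akap8, Pde4dip and Prkar1b lie on both sides.

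Single arrays moved the count of genes with an unadjusted p under 0.05 as well. It was 5 with knockout array 2 left out, 7 with knockout array 3 left out and 6 with wild-type array 4 left out, where 8.13%, 10.5% and 9.15% of all genes reached it. Adcy5, Akap13 and Rapgef2 were the 3 genes that kept it with each of the 7 arrays left out in turn. The share of all genes that did so was not counted. With the mean of probe sets Adcy5 differed by -0.017 and Akap13 by -0.045, and neither kept an unadjusted p under 0.05 (limma). The Adcy5 mean takes in dim probe sets at mean levels of 4.63 and 3.81, under the array median. Whether their signal exceeds background is not known. Within males, 2 knockout against 2 wild-type arrays, the differences of Adcy5, Akap13 and Rapgef2 were -0.24, -0.19 and -0.15. Within females, 1 knockout against 2 wild-type arrays, they were -0.10, -0.16 and -0.11. The 3 genes were picked on these same 7 arrays, so their signs within a sex are no separate support.

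Elsewhere in the pathway the pattern was mixed. Of 7 G protein alpha subunit genes 3 were lower and 4 higher, and 0 passed. Gnas, which encodes Gs alpha, the activator of the cyclases, read 13.58, 13.57 and 13.55 in the knockout arrays, against 13.69, 13.67, 13.67 and 13.66 in the wild-type arrays. The groups did not overlap, at -0.11 ± 0.021 (SE) (limma, adjusted p = 0.207). Gnao1, the Go alpha subunit, differed by -0.12 ± 0.037 (SE), again without overlap (limma, adjusted p = 0.315), and Gnaz by 0.059.

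Of 24 Gs-coupled receptor genes listed 17 were measured, 9 higher and 8 lower, with Gipr, Vipr2 and Htr4 at 0.17, -0.15 and 0.15. Of 22 Gi-coupled receptor genes 19 were measured, 7 higher and 12 lower, with Sstr2, Drd2 and Gabbr1 at 0.18, 0.17 and -0.076. Of the 8 anchors of PKA that are not named Akap 4 were lower. Nbea, a neuronal anchor of vesicle traffic, differed by -0.13 ± 0.036 (SE) without overlap (limma, adjusted p = 0.288), and Wasf1 and Sphkap by -0.13 and -0.11. Among 9 other genes that bind cyclic AMP or lie next to PKA, 7 were higher, with the dim Popdc3 and Popdc2 at 0.24 and 0.15 and the channel gene Hcn2 at 0.11. In these 5 lists 0 genes passed the threshold (limma), and 4 of their 60 measured genes (6.67%, beside 11.7% of all genes) had an unadjusted p under 0.05: Gnas, Gnao1 and Nbea, lower, and Popdc3, higher.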

How the data were processed

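Expression was taken as the authors deposited it, on a log2 scale, with 1 value per probe set and array. The submitters' processing notes name R 2.10.0, affy and RMA, without order or settings. In its usual form RMA corrects background, equalizes the distributions of all arrays and summarises probes by median polish, so that it removes differences in overall signal and gives no detection call. Array medians lay between 6.20 and 6.24. The number of arrays limits the precision, and the median standard error of a difference was 0.064 in the 61 genes.

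Control probe sets (64 of 45101) were left out. Genes were named from 34945 probe sets with a single symbol (932 had several, 9160 none). Identifiers of 60 of the 61 genes were found in the RefSeq table of GRCm38.p6, and Akap2 keeps the array's name. Another adenylyl cyclase is not reported here. The fit was limma 3.58.1 in R 4.3.3 (lmFit, eBayes with an intensity trend, two-sided, Benjamini-Hochberg adjustment over all genes, threshold 0.05), tested on simulated data. Differences are knockout minus wild type. Errors are limma's SE or the SD over arrays.

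Genes given on every array were those with an unadjusted p under 0.05 and, per role, the brightest and the one of smallest p. Others given so were chosen after their values were seen: Adcy1, Adcy6, Akap2, Akap5, Pde7a, Pde11a and Prkar1a. The genes, lists and rules were chosen with earlier results of these data known. Promoter sequences are RefSeq's. Same-numbered knockout and wild-type samples deviated together (correlations across genes of 0.32, 0.10 and 0.14 for numbers 1, 2 and 3). Some pairs of unlike number did so as much, with knockout 3 at 0.13 with wild type 2 and 0.10 with wild type 4. The numbers come from the sample titles, and samples of a number also shared their sex. The replicate number was therefore tried as a block. Figures used matplotlib 3.10.9 in Python 3.11.15.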

Additional observations from a re-analysis of the deposited data

Results flagged for a closer look

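Pde1c, a calcium-stimulated phosphodiesterase gene, read 7.50, 7.35 and 7.34 on the knockout arrays, and 7.48, 7.65, 7.48 and 7.45 on the 4 wild-type arrays. Wild-type array 2 lay apart from the other wild-type arrays, with a gap of 0.833 of the wild-type range, just above Dixon's critical value for 4 samples (95%). Of the 61 genes this was the 1 gene past that value, and chance flags about 1 in 20 groups.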

How the results depend on the processing

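None of the 61 genes passed after adjustment under any of the 18 alternatives, where their lowest adjusted p ran from 0.149 to 0.957. Over all genes, 7 passed with array weights, 1 with the mean of probe sets, 0 within females and 1 within males, and 2 to 21 with 1 array left out (21 without wild-type array 1, 8 without knockout array 1, 6 without wild-type array 2). Of the 61, genes with an unadjusted p under 0.05 (limma) numbered 3 with the mean of probe sets. They numbered 14 with sex as a covariate, 13 with array weights and 5 to 12 with 1 array left out. Over all genes the shares were, in that order, 10.7%, 12.8%, 13.1% and 8.13% to 14.5%. Non-overlapping genes numbered 5 with the mean of probe sets, 42 within females, 36 within males, 20 without wild-type arrays 2 and 3 and 13 to 22 with 1 array left out (22 without knockout array 1 or wild-type array 1), and with fewer arrays groups overlap less. All genes gave, in that order, 10.8%, 67.2%, 43.1%, 24.6% and 15.6% to 22.3%. The median of the 61 genes was -0.033 after a further quantile normalization, -0.017 with the mean of probe sets, -0.038 within males and -0.052 to -0.039 with 1 array left out. Pde4d changed sign with array weights (-0.00058), the mean of probe sets (-0.022), within males (-0.035) and with an array left out (-0.027 to 0.030). With the mean of probe sets 8 of the 61 genes turned sign, and the share of all genes that did so was not counted. Pkib, Prkar1b, Prkar1a, Pde1c, Akap6 and Pde3a, negative on the brightest probe set, were then 0.034, 0.0064, 0.066, 0.065, 0.027 and 0.0039, and Akap10, at 0.037 there, was -0.011, beside Pde4d above. With the replicate number as a block, arrays 1 to 3 of both genotypes, 0 of the 61 genes and 2 of all genes passed, so the block changed no call among the 61 at the threshold. An unadjusted p under 0.05 was then found in 9 of the 61 and 11.4% of all genes, with a median of -0.052 over the 61. Adcy7, Pde4dip, Prkaca and Pkig no longer had it, and Pde1a and Prkar2b did. The fits within a sex and without wild-type arrays 2 and 3 were chosen after seeing the data, and the lone female knockout array is assumed to vary like the others.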
